A study of Arabidopsis thaliana with 18 samples.

Results

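Genes of 6 families that build, modify or loosen the polysaccharides of the plant cell wall were followed in an Arabidopsis cell suspension culture (ACSC) after short treatments with photosensitizer dyes or hydrogen peroxide. A gene was taken where the annotation of the array gave its probe set exactly 1 symbol that starts with TBL, XTH, EXPA, CSL, CESA, GAUT, IRX or FLA followed by a number, or by a subfamily letter and a number. This gave 52 genes of 13513 probe sets with a single symbol. The rule itself uses no measured value, but it was chosen with earlier results of these data known. They were 22 TBL genes, 10 EXPA genes, 9 XTH genes, 8 CSL genes (CSLA01, CSLA03, CSLC04, CSLC5, CSLC6, ATCSLC08, CSLC12 and CSLD2), IRX15 and IRX15-L, and GAUT15. No CESA or FLA symbol met the rule, and 2 probe sets that name several genes were left out, so each family is seen only in part. Each gene had 1 probe set, and all 52 were found in the RefSeq gene table.

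The plant primary wall is a network of cellulose held together by xyloglucan and other hemicelluloses in a gel of pectin, and it must yield where a cell grows. CSLC proteins make the glucan backbone of xyloglucan, CSLA proteins make mannan, and GAUT proteins belong to the galacturonosyltransferase family that makes pectin. TBL proteins are a family of acetyltransferases and related enzymes that set the acetyl groups on xylan, mannan and pectin, IRX15 and IRX15-L are a pair of similar proteins needed for normal xylan, XTH enzymes cut and rejoin xyloglucan, and EXPA proteins, the alpha-expansins, loosen the wall without cutting it.

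The study used light-grown Arabidopsis cells in liquid medium, with 3 biological replicates in each of 6 groups and 18 ATH1 arrays in all. The first set of cultures held an untreated control, Rose Bengal (RB) at 0.5 μM and hydrogen peroxide (HP) at 500 μM. The second set held an untreated control of its own, MV at 0.5 μM and Indigo Carmine (IC) at 0.5 μM. RB, MV and IC are dyes that give singlet oxygen in light, and the labels spell MV out as Methyl Violet where the study's text has Methylene Violet. The labels name incubations of 30 min (high light) and of 1 h (dark), and do not tie either to an array. By the study's text the chemical treatments lasted 30 min, and the profiled RB and HP cultures were treated in the light. The study calls this light low to medium. The labels give no genotype or ecotype and name no mutation or transgene in any group. The study's text names the Columbia ecotype. The cells are a suspension culture and not an organ of the plant. Of 25 marker genes of green, dividing, root hair, xylem, phloem, guard and other cells, 3 had a named probe set. These were EXPA7 and EXPA18 of root hairs, which are also among the 52 genes, and FAMA of guard cells, and their log2 signals lay between 2.92 and 4.34 on all arrays, in the dim part of the range. In RNA from whole cultures, fewer cells of a type and less RNA per cell cannot be told apart.

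All values below are log2 signals after RMA, the authors' normalization, on a scale that runs from 2.43 to 13.69 with array medians of 4.92 to 5.15. Levels of different probe sets on such arrays cannot be set against each other. Averaged over the 18 arrays, 22 of the 52 genes had a signal of 5 or more, and the other 30 were below 5, where small changes are hard to see. Over all 18 arrays, TBL36 stayed between 11.23 and 12.05, CSLC04 between 8.43 and 9.96, EXPA4 between 9.32 and 11.19 and XTH19 between 7.79 and 10.35. GAUT15 ranged from 7.38 to 9.02 and IRX15-L from 4.65 to 8.62, a spread that is described with the culture sets. The control of RB and HP varied more than the other control, with a root mean square deviation of its arrays from their mean of 0.302 to 0.358 against 0.192 to 0.238.

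The first comparison asked which wall genes moved under RB. Most of them were lower, by small amounts: 39 of the 52 had a lower mean under RB than in the control, the median log2 difference was -0.21, and the range ran from -0.92 for CSLD2 to 0.31 for EXPA15. Over all 22746 probe sets tested, 46.6% were lower and the median was 0.02. Among the 22 wall genes with a mean signal of 5 or more, 20 were lower with a median of -0.49, whereas 42.5% of all probe sets at that signal were lower and their median was 0.06. By family, 19 of 22 TBL genes were lower (median -0.21), as were 6 of 9 XTH genes (-0.21), 5 of 8 CSL genes (-0.25), 6 of 10 EXPA genes (-0.09), both IRX genes (-0.49) and GAUT15. Subtracting the median of each array moved all RB differences by -0.10, so the negative family medians could only become more negative. Under that scaling 47 of the 52 were lower, against 62.5% of all probe sets, whose median was -0.08. After another quantile normalization the median of each of these families stayed negative, and 41 of the 52 were lower against 50.1% of all probe sets.

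None of the 52 passed limma's test at a Benjamini-Hochberg adjusted p of 0.05 over all probe sets in the unpaired fit, where 2.96% of all probe sets changed and 1.52% fell. At an unadjusted p of 0.05, 9 of the 52 passed, all of them lower, which is 17.3% of the genes against 14.9% of all probe sets in either direction and 7.12% lower. By their titles, control 1 belongs with RB1 and HP1, and likewise for 2 and 3. In the fit that pairs arrays by that number (the replicate block), 6 of the 52 fell and none rose, where 3.69% of all probe sets fell. These were TBL38, TBL39, TBL25, GAUT15, CSLD2 and CSLC6. The fold changes are the same in both fits, and only their errors differ. Deviations of control and RB arrays of the same number correlated with r = 0.000948 for replicate 3, the lowest value of the 3, so the pairing is not seen there.

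**Figure D1:**
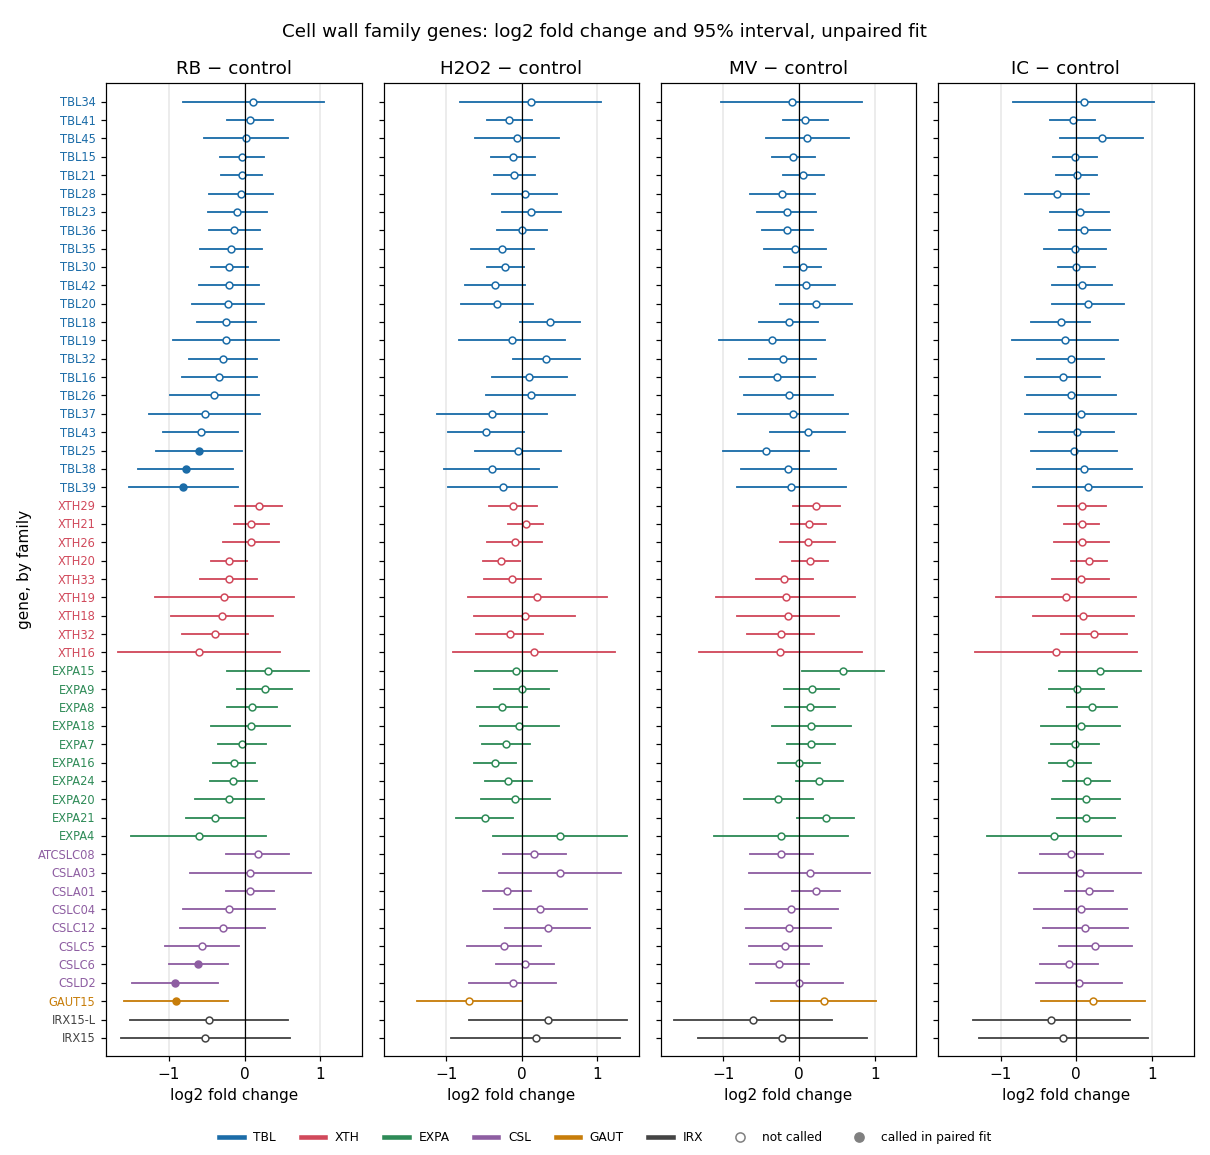
Log2 fold change (x axis) of each of the 52 wall genes (y axis, coloured by family) under RB, hydrogen peroxide, MV and IC against the control of the same culture set, with 95% intervals from the unpaired limma fit over 3 arrays per group; filled points were called in the paired fit. Under RB the points lie left of 0 for 39 genes and the filled points are 6 genes with log2 fold changes from -0.92 to -0.60, whereas under the other treatments no point is filled.

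TBL38, described in Arabidopsis seed coats as a pectin acetylesterase, had log2 signals of 9.32, 9.27 and 8.52 in control arrays 1, 2 and 3 and of 8.21, 8.81 and 7.75 in the RB arrays of the same numbers. Each RB array was below the control of its number, by 1.11, 0.46 and 0.77, although the groups overlapped because control 3 was low. The log2 fold change was -0.78 (standard error 0.29 unpaired and 0.14 paired, n = 3 arrays per group), with a limma adjusted p of 0.204 unpaired and 0.00375 paired. TBL38 is the only gene of the 6 whose paired call was kept with each of the 6 control and RB arrays left out in turn, with an adjusted p of 0.0251 at the highest.

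TBL39, a family member whose substrate is not assigned here, had 10.25, 10.89 and 10.73 in the control and 9.63, 9.80 and 10.01 under RB, and all 3 RB arrays lay below all 3 controls. Its log2 fold change was -0.81 (paired standard error 0.18, limma adjusted p = 0.018 paired and 0.265 unpaired). TBL25, a mannan O-acetyltransferase, had 7.76, 8.28 and 7.84 in the control and 7.13, 7.73 and 7.20 under RB. The 3 differences between arrays of the same number were close, at -0.63, -0.55 and -0.64, and the groups did not overlap (adjusted p = 0.0219 paired and 0.299 unpaired). Of the other mannan acetyltransferases, TBL23 and TBL26 had log2 fold changes of -0.10 and -0.40 and passed in neither fit. The 5 xylan acetyltransferases TBL28, TBL30, TBL32, TBL34 and TBL35 lay between -0.29 and 0.11, with TBL34 the highest of the TBL genes, and passed in neither fit. TBL32 is the only one of the 52 with a probe set of a design that can also bind related transcripts.

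GAUT15, a member of the galacturonosyltransferase family, had 8.48, 9.02 and 8.93 in the control and 7.46, 7.67 and 8.58 under RB. RB3 lay 0.35 below control 3 and just above control 1, while the other pairs differed by 1.02 and 1.35, and the log2 fold change was -0.90 (paired standard error 0.22, limma adjusted p = 0.0246 paired and 0.175 unpaired). CSLD2, a cellulose synthase-like protein needed for the growth of root hairs, had the lowest fold change of the 52, -0.92 (paired standard error 0.24, adjusted p = 0.0338 paired and 0.086 unpaired). Its control arrays had 7.93, 8.27 and 7.49 and its RB arrays 6.96, 6.76 and 7.22, so that the groups did not overlap. As with GAUT15, the third pair differed least, by 0.27.

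CSLC6, one of the xyloglucan glucan synthases, had 6.54, 6.65 and 6.47 in the control and 5.66, 6.32 and 5.85 under RB, without overlap (log2 fold change -0.61, paired standard error 0.16, limma adjusted p = 0.04 paired and 0.0923 unpaired). The family of xyloglucan glucan synthases has 5 genes on the list. CSLC5 had a log2 fold change of -0.57, CSLC12 of -0.29, CSLC04 of -0.21 and ATCSLC08 of 0.17, and none of these 4 passed in either fit. Of the mannan synthases, CSLA01 and CSLA03 had 0.07 and 0.08. The paired calls of TBL39, TBL25, GAUT15, CSLD2 and CSLC6 were each lost without control 1 and without control 2, and each without 1 or 2 of the RB arrays. That of CSLC6 was also lost with a trended robust prior (adjusted p = 0.0625). The number of wall genes called in the paired fit was 2 without control 1, 1 without control 2 and 11 without control 3. The shares of all probe sets called in these fits are not given here.

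**Figure D2:**
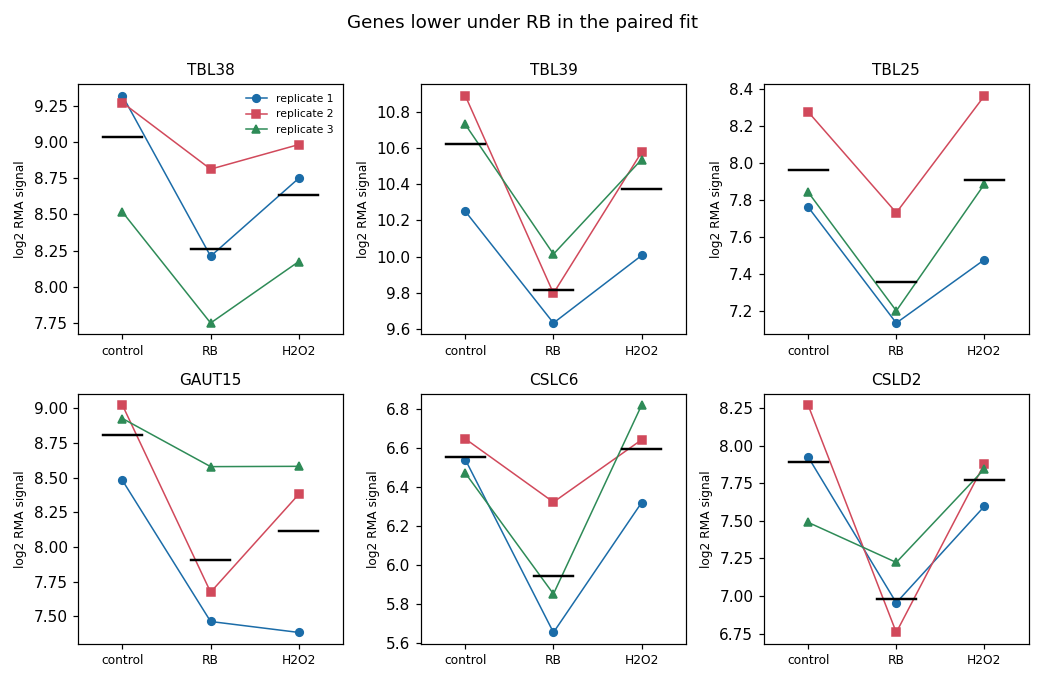
Log2 RMA signal (y axis) of the 6 genes that fell under RB in the paired fit, in the control, RB and hydrogen peroxide arrays; lines join arrays of the same replicate number and black bars are means of 3. Each RB point lies below the control point of its number in all 6 panels, and in GAUT15 hydrogen peroxide array 1 (7.38) lies below RB array 1 (7.46).

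In 5 of the 52 genes all RB arrays lay below all controls (CSLC6, CSLD2, TBL25, TBL39 and XTH20, the last of them dim) and in none above, where 6.83% of all probe sets lay below. Among the expansins, EXPA4 had the lowest fold change, -0.61 (95% interval -1.49 to 0.28), and EXPA15 the highest, 0.31 (-0.23 to 0.85). Among XTH genes, XTH16 had the lowest, -0.60 (-1.67 to 0.47), and XTH29, which is dim, the highest, 0.19 (-0.13 to 0.50). None of these 4 passed in either fit. XTH18 and XTH19, which lie next to each other in the genome, had -0.30 and -0.27, and the root hair expansins EXPA7 and EXPA18 had -0.03 and 0.08. In the IRX pair, IRX15 had -0.52 and IRX15-L -0.47, both with intervals that span 0 in the unpaired fit. For 38 of the 52 genes the whole 95% interval of the RB difference lay within a 2-fold change in either direction, so a larger change is outside the interval for these and inside it for the other 14.

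Other wall genes were taken from a list of 56 loci of cellulose, pectin and xylan synthesis, expansin-like proteins and wall-sensing kinases, of which 10 had a named probe set. COB, a membrane-anchored protein that orients cellulose deposition, and FER, a receptor kinase that senses the state of the wall, fell under RB in the unpaired fit, and none of the 10 rose. COB had 9.17, 9.72 and 9.01 in the control and 8.12, 8.59 and 8.07 under RB, a log2 fold change of -1.04 (standard error 0.20, n = 3 arrays per group, limma adjusted p = 0.0084). The 3 pairs differed by 1.05, 1.13 and 0.95, and the call was kept without each of the 6 arrays in turn (-1.21 to -0.83). FER had 9.98, 10.32 and 10.20 in the control and 9.67, 9.25 and 9.34 under RB (-0.75, standard error 0.17, adjusted p = 0.0225), a call lost without control 2 (adjusted p = 0.0914), without RB2 (0.0945) and without RB3 (0.0916). EXLA2, an expansin-like protein, had 8.37, 8.57 and 9.29 in the control and 7.09, 7.71 and 8.10 under RB, with an adjusted p of 0.0606 unpaired and 0.000152 paired (log2 fold change -1.11), so that 3 of the 10 fell in the paired fit, where 3.69% of all probe sets did, and 2 in the unpaired fit, where 1.52% did. The related EXLA1 and EXLA3 had -0.46 and 0.17 and passed in neither fit. Under MV, EXLA2 had -0.48 and FER -0.28, with all MV arrays below all controls of that set, and COB had -0.28 with overlap. The RB effect minus the MV effect, each over its own control, passed for none of COB, FER and EXLA2 in either fit. Their paired limma adjusted p were 0.111, 0.386 and 0.12. Against the IC effect, COB and EXLA2 passed in the paired fit only (0.021 and 0.0158), and FER in neither.

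**Figure D3:**
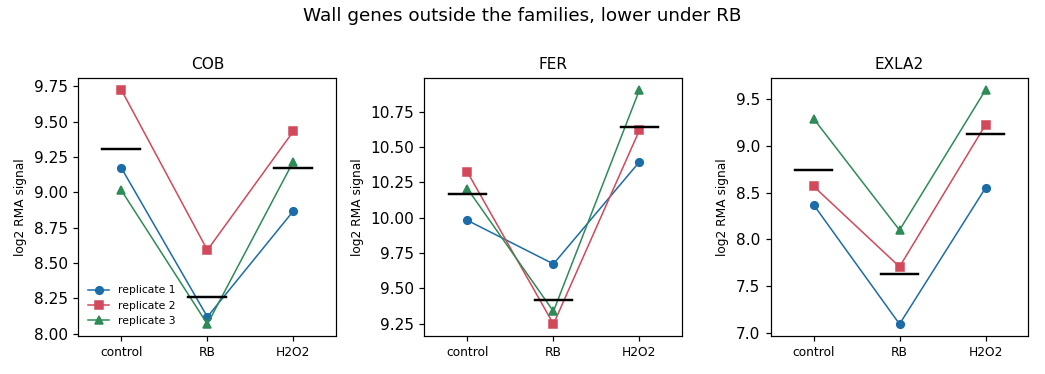
Log2 RMA signal (y axis) of COB, FER and EXLA2 in the control, RB and hydrogen peroxide arrays, with lines joining arrays of the same replicate number and black bars at the means of 3. In each panel all 3 RB points lie below every control and every hydrogen peroxide point.

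Hydrogen peroxide was compared with the same control as RB, so the comparisons share those arrays. None of the 52 passed limma's test in either fit, where 0.813% of all probe sets changed in the unpaired one, and 4 genes passed at an unadjusted p of 0.05, all lower (GAUT15 and the dim EXPA16, EXPA21 and XTH20). That is 7.69% of the genes, against 12.7% of all probe sets in either direction and 6.65% lower. Of the 52, 32 were lower with a median of -0.09, against 53.5% of all probe sets and a median of -0.02. Of the 22 with a signal of 5 or more, 10 were lower with a median of 0.02. At that signal 37.1% of all probe sets were lower, with a median of 0.10. GAUT15 had the largest difference, -0.69 (95% interval -1.38 to -0.003), with 7.38, 8.38 and 8.58 under HP. Each HP array lay below the control of its number, HP3 by the least (0.34). The next largest were EXPA4, with 0.51, and CSLA03, with 0.50, neither of them called. EXPA4 had 11.19, 10.74 and 9.32 in the control, and its HP arrays had 11.18, 10.89 and 10.71. CSLA03, a mannan synthase of low signal, had 3.66, 3.58 and 5.51 in the control and 4.61, 4.48 and 5.18 under HP. Control 3 stood apart in both genes, low for EXPA4 and high for CSLA03, and without it EXPA4 had -0.04 and CSLA03 1.13 (limma adjusted p = 0.0186). In 5 of the 52 genes all HP arrays lay below all controls, where 8.9% of all probe sets did, and in none above. The 5 were CSLA01, EXPA8, EXPA16, EXPA21 and XTH20, all of them dim. EXPA genes, most of them dim, were lower in 9 of 10 (median -0.13), TBL genes in 14 of 22 (-0.11) and CSL genes in 3 of 8 (0.10). After another quantile normalization 7 of the 10 EXPA genes were lower. The CSL median was -0.008 after subtracting the median of each array.

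Set directly against HP, RB left the wall genes of moderate or high signal lower. Of the 22 with a signal of 5 or more, 20 were lower under RB, with a median of -0.41, against 53.8% of all probe sets at that signal and a median of -0.03. Over all 52 genes 30 were lower (median -0.11), and 39.7% of all probe sets. None passed limma's test in the unpaired fit, where 2.84% of all probe sets differed and 1.99% were lower, and 7 passed at an unadjusted p of 0.05, 6 of them lower. These 7 are 13.5% of the genes, against 13.2% of all probe sets, of which 7.01% were lower. In the paired fit 7 of the 52 were lower and none higher (4.56% of all probe sets lower): CSLC12, EXPA4, IRX15, IRX15-L, CSLC6, TBL25 and XTH16. For RB and HP arrays the correlation of deviations between the same numbers was 0.388 on average and at least 0.231.

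EXPA4, an expansin, had the largest difference. Its RB arrays had 10.21, 9.60 and 9.62 against 11.18, 10.89 and 10.71 under HP, without overlap, a log2 difference of -1.11 (paired standard error 0.26, n = 3 arrays per group, limma adjusted p = 0.0223 paired and 0.219 unpaired). CSLC12, a xyloglucan glucan synthase of low signal, had 3.89, 3.91 and 4.75 under RB and 4.46, 4.67 and 5.32 under HP. The pairs differed by 0.57, 0.76 and 0.57 although the groups overlap, since replicate 3 was the highest of each (log2 difference -0.63, adjusted p = 0.00352 paired and 0.295 unpaired). The paired call of CSLC12 was kept without each of the 6 arrays, with an adjusted p of 0.0312 at the highest. Each of the other 6 was lost without at least 3 of the arrays, HP2 among them in each case.

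IRX15 had 4.89, 5.12 and 4.12 under RB and 5.41, 5.80 and 5.03 under HP, and IRX15-L had 5.56, 4.92 and 4.65 against 6.02, 6.37 and 5.18. In both genes every RB array was below the HP array of its number, and the group ranges overlapped (log2 differences -0.70 and -0.81, paired limma adjusted p = 0.0203 and 0.0205). XTH16 had 3.53, 4.05 and 4.29 against 3.90, 5.11 and 5.14 (-0.76, adjusted p = 0.0405 paired). CSLC6 and TBL25, described under RB, had -0.65 (0.0297) and -0.55 (0.0345). Both paired calls were lost after another quantile normalization (adjusted p = 0.054 and 0.0564), and that of TBL25 also after subtraction of array medians (0.0725). By family, 6 of 8 CSL genes were lower under RB than under HP (median -0.44), 14 of 22 TBL genes (-0.11), 5 of 9 XTH genes (-0.08) and 2 of 10 EXPA genes (0.15), EXPA4 being one of these 2. In 8 of the 52 genes all RB arrays lay below all HP arrays, where 8.78% of all probe sets did. The 8 were CSLA03, CSLC5, CSLD2, EXPA4, TBL16, TBL18, TBL26 and TBL32. In 3 genes, the dim EXPA8, EXPA16 and XTH26, all RB arrays lay above all HP arrays, where 2667 of 22746 probe sets did. On the list of other wall genes, FER (-1.22, adjusted p = 0.000691), EXLA2 (-1.49, 0.0115) and COB (-0.91, 0.0194) were lower under RB than under HP in the unpaired fit. FER was also higher under HP than in the control by 0.47, without overlap, though not called (limma adjusted p = 0.268 unpaired). EXLA2 and COB had 0.38 and -0.13 under HP.

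**Figure D4:**
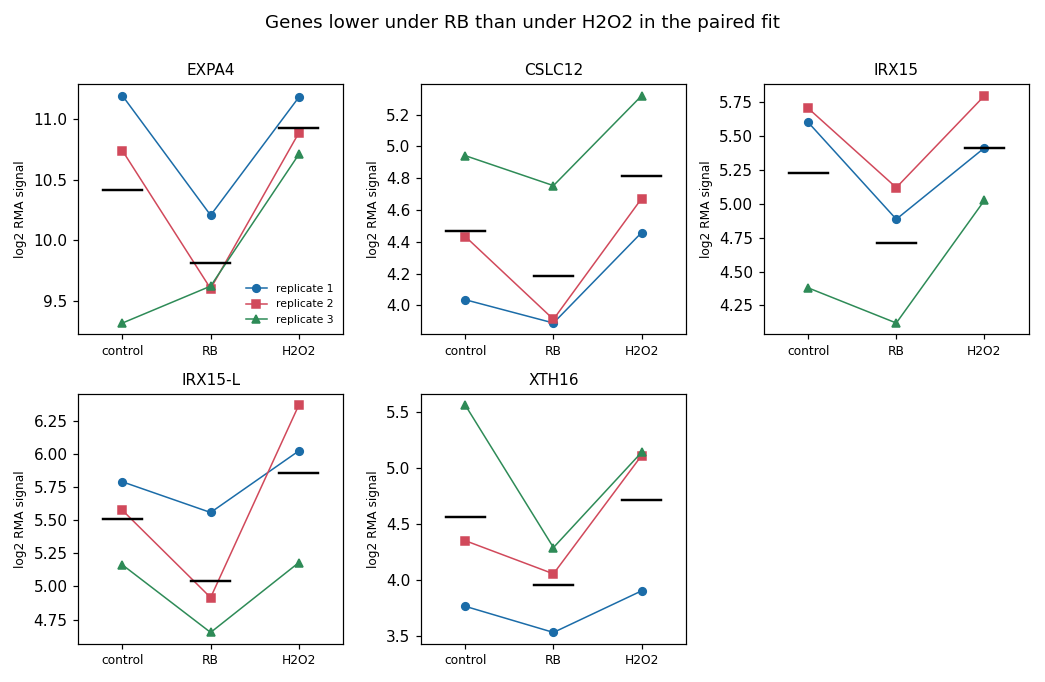
Log2 RMA signal (y axis) of EXPA4, CSLC12, IRX15, IRX15-L and XTH16 in the control, RB and hydrogen peroxide arrays, with lines joining arrays of the same replicate number and black bars at the means of 3. In each panel every RB point lies below the hydrogen peroxide point of its number, and in EXPA4 control 3 lies at 9.32, far below controls 1 and 2.

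MV and IC were given at the same dose as RB and compared with the control of their own set. None of the 52 passed limma's test in either fit for MV (0.0% of all probe sets changed) or for IC (0.0%). At an unadjusted p of 0.05 in the unpaired fit, 1 gene passed under MV and 0 under IC. Under MV that is 1.92% of the genes, below the 3.33% of all probe sets, and under IC 1.64% of all probe sets passed. The expansin EXPA15 was the one under MV. It had 5.03, 5.06 and 4.75 in the control, 5.44, 5.47 and 5.69 under MV and 5.38, 5.25 and 5.15 under IC, so all arrays of both dyes lay above all controls (log2 fold changes 0.58 and 0.31, limma adjusted p = 0.9997 and 0.99997). The dyes share those controls. All MV arrays lay above all controls in 5 of the 52 and below in 3, against 1439 and 1038 of 22746 probe sets. For IC these counts were 3 and 2, against 1336 and 754. IRX15-L had the lowest fold change under both dyes, -0.60 under MV (95% interval -1.65 to 0.44) and -0.33 under IC (-1.37 to 0.71), and TBL25 had -0.44 under MV. TBL45, of low signal, had the largest under IC, 0.34 (-0.22 to 0.89). Under IC 20 of the 52 were lower (median 0.05) and under MV 29 (-0.09). Of the 22 with a signal of 5 or more, 19 were lower under MV with a median of -0.15, where 64.1% of all probe sets at that signal were lower with a median of -0.07, and 9 were lower under IC, where 61.2% of all were. None of the 52 passed in the difference between MV and IC (0.0%), where 1 passed at an unadjusted p of 0.05, as did 1.97% of all probe sets. The 95% interval lay within a 2-fold change for 42 genes under MV and for 46 under IC.

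The effect of RB was then set against the effects of MV and of IC, each over its own control. None of the 52 passed the unpaired limma test of either difference, where 0.374% of all probe sets differed between RB and MV and 0.615% between RB and IC, and 4 and 5 of the 52 passed at an unadjusted p of 0.05 (7.69% and 9.62%, against 9.14% and 10.4% of all probe sets). In both differences 42 of the 52 were lower for RB, with medians of -0.14 against MV and -0.23 against IC. Of all probe sets, 49.9% were lower against MV and 48.6% against IC. In the paired fit 1 gene passed, TBL38 against IC (1.05% of all probe sets were lower there), with a difference of -0.88 (standard error 0.19, adjusted p = 0.0321). TBL38 was at 9.23, 9.05 and 9.49 in the control of IC and at 9.37, 9.10 and 9.61 under IC, above its control by 0.14, 0.05 and 0.13. Against MV its difference was -0.64 (95% interval -1.05 to -0.22, adjusted p = 0.153 paired). GAUT15 had the largest differences, -1.23 against MV and -1.12 against IC, with adjusted p of 0.0808 and 0.0835 in the paired fit. Its log2 fold changes were 0.32 under MV and 0.22 under IC. Its mean was 8.81 in the control of RB and HP, 7.91 under RB and 8.12 under HP, and 7.93 in the control of MV and IC, 8.25 under MV and 8.14 under IC, so that the control of RB and HP had the highest mean of the 6 groups. The control of MV and IC lay below that control by 0.88 on the log2 scale (95% interval of the difference -1.58 to -0.19, adjusted p = 0.103).

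The largest differences among the 52 genes were those between the untreated controls of the culture sets. In 7.47% of all probe sets the controls differed, 4.65% being higher in the control of MV and IC, and 2 of the 52 were called, both higher there: IRX15-L and XTH16. IRX15-L had 5.79, 5.57 and 5.16 in the control of RB and HP and 8.62, 7.30 and 8.06 in the control of MV and IC, a difference of 5.60-fold (log2 2.49, standard error 0.49, n = 3 arrays per group, limma adjusted p = 0.00995). The call was kept without each of the 6 arrays (2.17 to 2.83). XTH16 had 3.76, 4.35 and 5.56 against 5.91, 7.12 and 6.82 (log2 2.06, standard error 0.50, adjusted p = 0.0252), and was lost without control 1 or 2 of RB and HP and without control 2 or 3 of MV and IC, with an adjusted p of up to 0.124. Control 3 of RB and HP, at 5.56, stood above the others of its group.

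The treated arrays of each set lay with their control. IRX15-L was between 4.65 and 6.37 on the 9 arrays of the RB and HP set and between 6.34 and 8.62 on the 9 of the MV and IC set. IRX15, its close relative, was between 4.12 and 5.80 and between 5.74 and 7.69 (control difference 1.77, adjusted p = 0.0526). TBL34, a xylan acetyltransferase, was between 4.81 and 5.62 and between 5.69 and 7.53, with no overlap (control difference 1.47, adjusted p = 0.0532). TBL19, of low signal, had a control difference of 0.91 (adjusted p = 0.0987). In 9 of the 52 genes all controls of MV and IC lay above all controls of RB and HP, where 12.7% of all probe sets did, and in 7 all lay below, where 13.3% did. Within the MV and IC set, array 2 was the lowest of the 3 in the control, under MV and under IC for IRX15 (6.23, 5.74 and 5.84) and for IRX15-L (7.30, 6.34 and 6.71), and for TBL19 as well. For XTH16 it was the highest of the 3 in each (7.12, 6.95 and 7.07). Set and treatment cannot be told apart for any level compared across the sets, and only differences from the set's own control were used for the dyes.

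**Figure D5:**
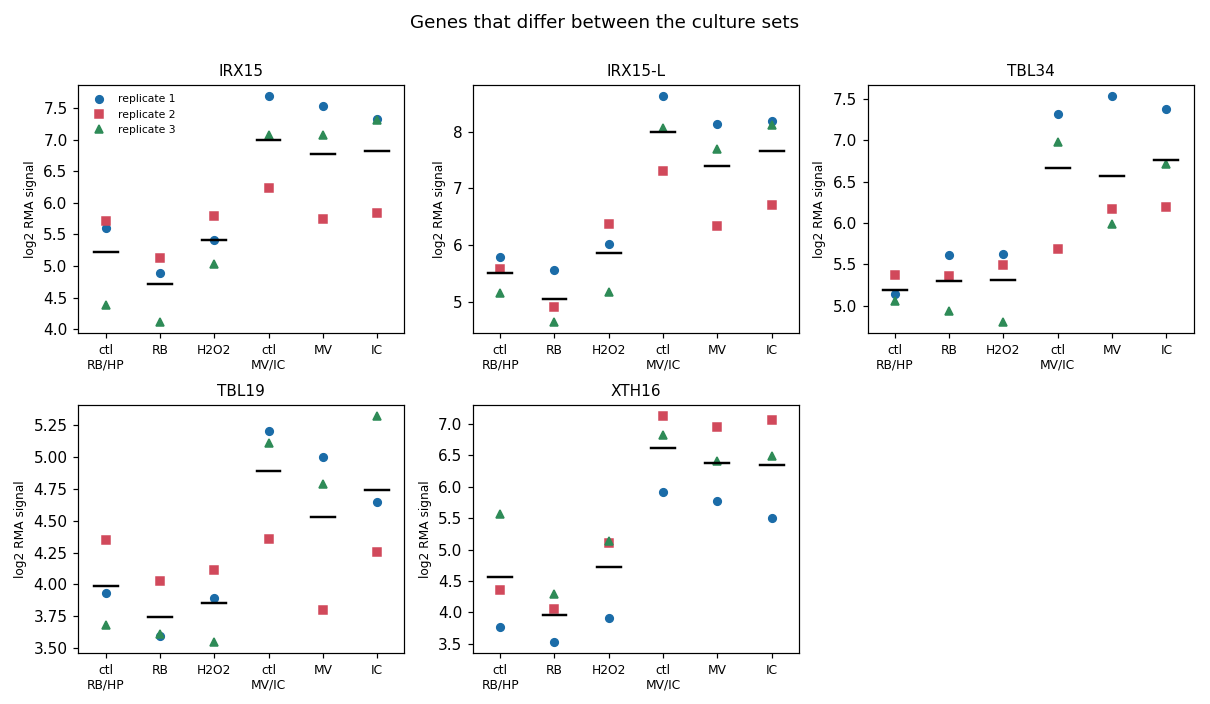
Log2 RMA signal (y axis) of IRX15, IRX15-L, TBL34, TBL19 and XTH16 on all 18 arrays by group, with the replicate number shown by colour and shape and black bars at the means of 3. The group means of the MV and IC set lie higher in each panel, the arrays of TBL34 without overlap and those of IRX15-L between 6.34 and 8.62 against 4.65 to 6.37, and array 2 of that set is the lowest of its group for IRX15 and IRX15-L and the highest for XTH16.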

How the data were processed

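Transcripts of light-grown ACSC were measured with Affymetrix ATH1 arrays. The authors normalized the arrays by RMA (affy and RMA are named without a version in the submitters' processing notes), and the deposited values are log2 signals of 22810 probe sets. No read depth applies to arrays, and their number limits the precision. The files name no genome build, so no coordinate is given.

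The 64 control probe sets were left out, and the other 22746 went into a single limma 3.58.1 fit under R 4.3.3 (6 groups, 12 residual and 3.37 prior degrees of freedom). The two-sided p-values were adjusted over these 22746 after Benjamini and Hochberg, and calls were made at 0.05. The unpaired fit has no block, as the study's methods name none. The titles tie each control to treated arrays of its number. A paired fit, in which the number is a block (8 residual degrees of freedom, 4.63 prior), was therefore run as well. It is given where calls changed. The unpaired fit called 673 probe sets under RB and 185 under HP, fewer than the transcripts the study reports. In the paired fit 810 probe sets rose and 839 fell under RB, and 403 rose and 136 fell under HP. These numbers lie closer to the study's counts. As a check of this pairing, deviations from group means correlated between arrays of the same number at 0.218 on average for control and RB, 0.563 for control and HP, 0.388 for RB and HP, 0.161 for control and MV (lowest -0.333, replicate 3), 0.427 for control and IC and 0.389 for MV and IC. The unpaired fit was tested on simulated data with known changes, and the paired fit was not.

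Genes were named from the platform annotation and matched by Entrez ID to the RefSeq gene table. The named genes were all called genes, the highest and lowest of each family under RB, the 3 largest differences under HP, MV and IC, the probe set of highest mean in each family (to choose a gene, not to rank levels), the called differences between controls, and called genes of the list of other wall genes. Any other gene in the text, those called only in the paired fit included, was chosen with its values in view. The genes, lists, tests and rules were chosen with earlier results of these data known. Alternatives were the block, another quantile normalization, subtraction of array medians, a trended robust prior, array weights, a filter at a mean log2 signal of 5, a fit of only the arrays compared, and each array left out in turn. Plots were made in matplotlib 3.10.9 (Python 3.11.15).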

Additional observations from a re-analysis of the deposited data

Results flagged for a closer look

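TBL38 was the only gene of the 52 whose response to RB and to another dye differed in a test of the difference itself. The effect of RB over its control minus that of IC over its own control was -0.8827 on the log2 scale in the limma fit with the replicate block. The difference did not pass in the unpaired fit (adjusted p = 0.482). Groups of 3 arrays are too small for a test of outlying arrays.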

How the results depend on the processing

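The number of wall genes called depended on the fit. With the replicate block, which pairs arrays by number, it went from 0 to 6 for RB, from 0 to 7 for RB against HP and from 0 to 1 for the effect of RB against that of IC, and it changed no other count. No paired value exists for the difference between the controls, since the block lies within each set. Another quantile normalization gave 1 for RB, where 3.33% of all probe sets were called. Array weights gave 3 for RB against HP, where 5.04% were. For the controls, where 2 were called, the count was 5 with a trended robust prior (7.37% of all probe sets) and 1 with array weights (6.87%). It was 4 after a filter at a mean of 5 (12.8% of the probe sets kept). With only the arrays compared, which has fewer degrees of freedom, it was 0 (0.106%). With single arrays left out, the counts ran from 0 to 2 for RB, from 0 to 3 for HP and from 0 to 1 for RB against HP. The 3 for HP came without control 3, where 4.48% of all probe sets were called. For the controls the counts ran from 1 to 7. The 7 came without control 3 of RB and HP, where 16.4% of all probe sets were called. In the paired fit, whose alternatives were chosen after seeing the data, the counts ran from 1 to 11 for RB. For RB against HP they ran from 1 to 6, with 2 without RB2 or RB3, 1 without HP2 and 2 without HP3. Shares of all probe sets in the other fits with an array left out are not given here.

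Of 306 values under alternatives, over 24 fold changes of named genes, 281 kept their direction and their side of the threshold, 13 no longer passed, 5 newly passed and 7 changed sign. With single arrays left out, the log2 fold change ran from -0.0062 to 0.3842 for ATCSLC08 under RB, from -0.0875 to 0.5286 for EXPA15 under RB, from -0.0414 to 0.8964 for EXPA4 under HP, from -0.6744 to 0.1503 for IRX15-L under IC and from -0.0409 to 0.2969 for TBL34 under RB. TBL34 under RB was -0.0092 after another quantile normalization and -0.0103 with array weights. The causes were not tested. COB and FER under RB did not pass with only the arrays compared (adjusted p = 0.167 and 0.194), nor did FER with array weights (0.0529).

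Subtracting the median of each array moved the median of all probe sets by -0.10 for RB, -0.11 for HP, -0.15 for RB against IC effects and -0.12 for RB against MV effects. The 30 genes with a mean signal under 5 may change without a visible shift, and the median half-width of their 95% intervals against control was 0.38, and that of the other 22 was 0.62. For differences between effects of dyes it was 0.64 over all 52.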
